A study of Sus scrofa with 12 samples.

Results

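In pig testis RNA, 49 transcripts over 300 bases long were read in every Duroc library and in no Large white library, and 25 showed the opposite pattern. They are 74 of the 60310 transcripts of that length, and of 63022 Ensembl pig transcripts in all. A transcript was taken as Duroc-only when it had at least 0.3 TPM (a relative abundance scaled for transcript length and for the library total) in all 3 Duroc libraries and an estimated read count that rounded to 0 in all 3 Large white libraries. Large white-only transcripts met the same limits with the breeds exchanged. Another 6 transcripts that met these limits, 3 in each direction, were left out by name. Their mean levels were 2.11 to 11.0 TPM in Duroc and 37.3 to 81.5 TPM in Large white. Because the levels in both breeds chose the members, their presence in one breed and absence from the other is a description and was not tested.

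Testis is known for transcribing a large part of the genome and for many alternative transcripts, as germ cells pass from spermatogonia through meiosis to spermatids beside Sertoli cells, Leydig cells and peritubular muscle. A transcript is one processed form of a gene, set by its start site, splicing and end, so a gene can be active in both breeds while a given transcript of it is found in one. Estimated counts divide reads among the transcripts they match, and reads of exons shared by several transcripts can be given to any of them. The pig reference assembly Sscrofa11.1 comes from a Duroc animal.

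The samples were testes of 12-month-old adult boars of the breeds Western Duroc and Large white, both introduced to China from the West, with no treatment named. Total RNA depleted of ribosomal RNA was sequenced in 3 libraries per breed. Whether the libraries of a breed were made from separate animals is not stated in the labels, and their spread may in part be technical. No table used here pairs the transcripts with genes, so members are given by Ensembl identifier, and neither their functions nor other transcripts of the same genes can be named.

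The Duroc RNA libraries held 17922861 to 24111576 estimated reads and the Large white libraries 20554627 to 25520578. The Duroc libraries numbered 1 and 3 differed from the rest. On a log2(TPM + 1) scale, a 4-fold difference was exceeded by 190 to 254 transcripts over 300 bases within Large white. Compared with Large white, it was exceeded by 2368 to 2583 transcripts in Duroc library 1 and 1123 to 1174 in library 3, but by only 312 to 363 in library 2. Within Duroc it was exceeded by 557 to 3042 transcripts. The 3042, between Duroc libraries 1 and 2, was more than for any Duroc library compared with Large white. Between 14533 and 18081 of the 60310 transcripts had no read in a given library, the fewest in Duroc library 1 and the most in Duroc library 2. Marker genes could not be looked up in these RNA libraries. In the small RNA libraries of the series, the gonadal miR-202-5p had 4059 to 14506 RPM (reads scaled to the library's miRNA total) and miR-34c of meiotic and later germ cells 1216 to 19235, against 4.16 to 61.6 for the liver miRNA miR-122-5p, and miR-451 of red cells had 1506 to 4860. The lowest values of the first 3 were those of small RNA library 1 of Duroc, and miR-34c was at 3080 in library 3 against at least 12684 in the other 4. The sample titles give RNA and small RNA libraries the same names and numbers, but do not state that both came from the same animal. By number, the Duroc small RNA libraries 1 and 3 match the RNA libraries that stood apart. A link between these values and the RNA libraries was not tested.

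The 49 Duroc-only transcripts were 0.187% of the 26169 transcripts over 300 bases that reached 0.3 TPM in all 3 Duroc libraries. Most had low levels. The median of their mean levels was 1.15 TPM, against 5.68 TPM over the 26169, and 29 of 49 had a mean of at least 1 TPM. Together they took 4115, 2683 and 3443 reads of Duroc libraries 1 to 3, or 0.0171%, 0.0135% and 0.0192% of all estimated reads. The Large white counts were exactly 0 in all 3 libraries for 37 members. The other 12 had a fraction of a read, at most 0.0812, in at least 1 library.

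ENSSSCT00000063273.2, of 1023 bases, was the most abundant Duroc-only transcript, at 22.2, 81.9 and 39.0 TPM in Duroc libraries 1 to 3. These levels rested on 342, 1032 and 438 reads, and no read was assigned in Large white. At the mean level of 47.7 ± 30.8 TPM (SD, n = 3), at least 606 reads would have been expected in each Large white library. With a floor of 3 reads per Large white library, even the lowest Duroc library was at least 94.0-fold above Large white. Every lower bound below is likewise that of the lowest library with reads, against the highest floor of the 3 libraries without. These bounds come from the values that chose the members, so they describe the libraries at hand and do not test a difference between the breeds. ENSSSCT00000063273.2 alone held 29.7% of the summed mean TPM of the 49.

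ENSSSCT00000030537.2, of 312 bases, came next in mean level but not in reads. It had 0.710, 45.7 and 53.0 TPM in Duroc libraries 1 to 3, from 1, 53 and 56 reads. A single read thus carried it over the limit in Duroc library 1, and its highest level was 74.7 times its lowest. Its lowest library lay under the floor of 3 reads and gives no bound. All 3 counts were whole numbers, as in 6 of the 49 members.

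The next members by mean level were high in 1 or 2 of the Duroc libraries, and not always the same ones. ENSSSCT00000010747.3, of 1292 bases, had 0.927, 0.352 and 21.9 TPM from 19.4, 6 and 331 reads. ENSSSCT00000025117.3, of 2227 bases, had 1.37, 0.586 and 13.7 TPM from 54.4, 19.0 and 396 reads. ENSSSCT00000091034.1, of 1492 bases, had 1.33, 1.68 and 8.33 TPM. In these 3 transcripts Duroc library 3 stood far above the other Duroc libraries. ENSSSCT00000010763.4, of 1446 bases, instead had 8.13, 1.18 and 3.66 TPM, with its lowest level in Duroc library 2. ENSSSCT00000054029.2, of 913 bases, was also lowest there, with 4.83, 1.33 and 5.74 TPM, as was ENSSSCT00000075786.1, of 1919 bases, with 2.95, 1.16 and 3.63 TPM.

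ENSSSCT00000066059.1, of 1395 bases, was instead highest in Duroc library 2, with 2.53, 6.62 and 3.35 TPM from 58.1, 124 and 55.7 reads. ENSSSCT00000070675.1, of 4173 bases, had 4.65, 2.65 and 1.11 TPM and was highest in Duroc library 1. They were at least 15.9-fold and 24-fold higher than in Large white. Another 2 of the 12 most abundant were short and rested on few reads. ENSSSCT00000087881.1, of 318 bases, had 0.671, 6.52 and 0.894 TPM from 1, 8 and 1 reads. ENSSSCT00000080440.1, of 320 bases, had 2.25, 1.60 and 3.85 TPM from 3.41, 2 and 4.39 reads. Both had libraries under the floor of 3 reads, so no bound is given.

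Long members had more reads behind lower levels. ENSSSCT00000044188.2, the longest with 9861 bases, had 4.32, 0.628 and 2.0 TPM from 839, 99.5 and 280.1 reads. It was at least 33.3-fold higher in the Duroc libraries. ENSSSCT00000045359.2, of 6092 bases, had 2.40, 1.10 and 2.26 TPM from 283, 106 and 193 reads. ENSSSCT00000060339.2, of 6787 bases, had 0.512, 0.724 and 0.805 TPM from 67.7, 78.0 and 76.9 reads, so that its Duroc libraries lay close together. ENSSSCT00000051945.2, of 7203 bases, had 2.66, 0.349 and 0.450 TPM from 373, 40.1 and 45.7 reads, mostly from Duroc library 1. Over all 49, the lowest count in a Duroc library had a median of 22.3 reads. It was at least 10 in 34 members, all of 913 bases or more, and under 3 in 7 members, all of 543 bases or less.

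**Figure D1:**
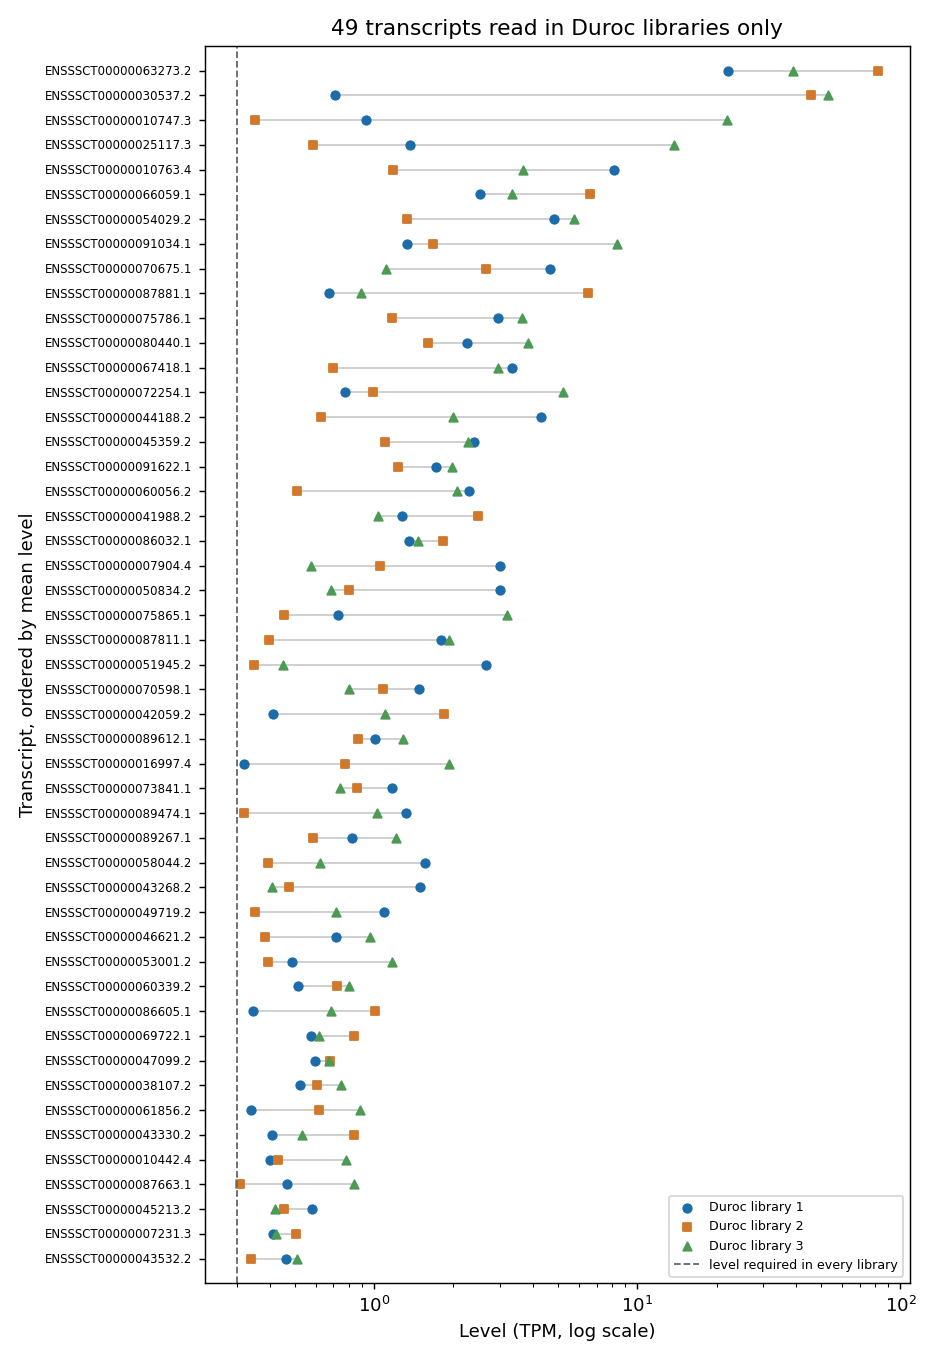
Level in TPM (log axis) of each of the 49 Duroc-only transcripts in Duroc libraries 1 to 3, ordered by mean level; points are single libraries, the grey line joins the lowest and the highest, and the dashed line is the required 0.3 TPM. The top transcript lies between 22.2 and 81.9 TPM, while 12 members stay under 1 TPM in every library.

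The highest level was a median of 3.10 times the lowest, against 2.42 times over the 26169 transcripts. It exceeded 5 times in 12 of 49 members (24.5%, against 15%) and was under 2 times in 13 (26.5%, against 37.6%). Duroc library 3 was the highest in 22 members (44.9%, against 21.3%), Duroc library 1 in 16 (32.7%, against 44.6%) and Duroc library 2 in 11 (22.4%, against 34.1%). Duroc library 2 was the lowest in 23 members (46.9%, against 51.6%). Members share these libraries and are not replicates, so the shares are descriptions.

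The 30 Duroc-only members not named had mean levels of 0.437 to 2.34 TPM, and 13 of them were at 1 TPM or more. Their lengths ran from 339 to 6083 bases, and their highest level was 1.14 to 7.04 times their lowest. Just inside the limit lay ENSSSCT00000087663.1, with 0.467, 0.308 and 0.838 TPM, ENSSSCT00000089474.1, with a lowest level of 0.319 TPM, and ENSSSCT00000016997.4, with 0.320 TPM. Just outside it lay ENSSSCT00000088558.1, at 0.975, 1.72 and 0.294 TPM, ENSSSCT00000042072.2, with a lowest level of 0.292 TPM, and ENSSSCT00000081978.1, with 0.291 TPM. Outside the limit on reads, 25 transcripts reached the level in Duroc and had 1 or 2 rounded reads in all of Large white. The most abundant of them, ENSSSCT00000075948.1, had 14.8, 3.14 and 5.89 TPM in Duroc and 1.99 reads in Large white library 2. The next were ENSSSCT00000007759.4 at a mean of 2.92 TPM and ENSSSCT00000060068.2 at 2.21 TPM. Only 1 or 2 reads in Large white thus separate these transcripts from the members.

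The 25 Large white-only transcripts were 0.0962% of the 25990 transcripts over 300 bases that reached 0.3 TPM in all 3 Large white libraries. Most were below 1 TPM. The median of their mean levels was 0.860 TPM, against 4.51 TPM over the 25990, and 9 of 25 had a mean of at least 1 TPM. They took 1043, 764 and 874 reads of Large white libraries 1 to 3, or 0.00409%, 0.00332% and 0.00425%. The Duroc counts were exactly 0 for 16 members, and the other 9 had at most 0.284 of a read in a library. Absence was here read in the breed with fewer reads and with the 2 libraries that stood apart. The part of either in the count of 25 was not tested.

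ENSSSCT00000075067.1, of 1551 bases, was the most abundant, at 8.90, 3.64 and 5.37 TPM in Large white libraries 1 to 3 from 233, 91.5 and 115 reads. Its Duroc counts rounded to 0, with at most 6.74e-05 of a read in a library. With the floor of 3 reads per library, it was at least 23.0-fold higher in the Large white libraries. ENSSSCT00000084174.1, of 2908 bases, had 4.93, 1.32 and 5.58 TPM from 263, 67.8 and 245 reads, and was at least 17.0-fold higher. Both were lowest in Large white library 2, the second by more. These are the only 2 members for which an equal mean level would have given at least 100 reads in each Duroc library.

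Several further members had their highest level in Large white library 2. ENSSSCT00000067620.1, of 667 bases, had 3.21, 4.44 and 2.43 TPM from 27.0, 35.8 and 16.6 reads. ENSSSCT00000058956.2, of 1095 bases, had 2.05, 3.51 and 1.54 TPM. ENSSSCT00000083139.1, of 2088 bases, had 1.23, 3.05 and 0.987 TPM, and ENSSSCT00000082579.1, of 2366 bases, had 0.933, 1.74 and 0.507 TPM. Their 4 lower bounds were 4.89-fold, 6.28-fold, 8.82-fold and 5.22-fold. All were lowest in Large white library 3.

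ENSSSCT00000062323.2, of 2055 bases, was even across the libraries, at 1.58, 1.41 and 2.16 TPM from 57.4, 49.3 and 64.3 reads, and was at least 12.4-fold higher in Large white. ENSSSCT00000045937.2, of 1383 bases, had 0.750, 1.01 and 1.16 TPM, and ENSSSCT00000087629.1, of 2045 bases, had 1.01, 0.512 and 1.14 TPM. ENSSSCT00000068077.1, of 967 bases, had 0.485, 0.722 and 1.44 TPM from 7, 10 and 17 whole reads. A few of the 12 most abundant were short. ENSSSCT00000086265.1, of 462 bases, rested on 4 to 5.65 reads at 0.924 to 1.38 TPM. ENSSSCT00000080319.1, of 343 bases, rested on 2.03 to 3.79 reads at 1.29 to 1.85 TPM, too few to tell its absence from Duroc at this depth.

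Among the long members, ENSSSCT00000051610.2, of 4999 bases, had 1.02, 0.396 and 0.870 TPM from 97.1, 36.4 and 68.4 reads. ENSSSCT00000065166.2, of 4904 bases, had 0.407, 0.322 and 0.597 TPM from 38, 29 and 46 whole reads, and ENSSSCT00000001629.4, of 4362 bases, had 0.403, 0.505 and 0.798 TPM. At these lengths a level under 1 TPM in the lowest library still gave lower bounds of 9.15-fold, 7.28-fold and 8.07-fold. The 7 members not named had mean levels of 0.435 to 0.860 TPM. Just inside the limit lay ENSSSCT00000026585.3, with 0.359, 0.343 and 0.305 TPM, ENSSSCT00000089633.1, with a lowest level of 0.307 TPM, and ENSSSCT00000015183.4, also with 0.307 TPM. Just outside it lay ENSSSCT00000015644.4, at 0.295, 1.44 and 1.22 TPM, ENSSSCT00000060692.2, with a lowest level of 0.280 TPM, and ENSSSCT00000044758.2, with 0.279 TPM. Outside the limit on reads, 21 transcripts had 1 or 2 rounded reads in all of Duroc. Of these, ENSSSCT00000080137.1 had 5.22, 5.56 and 5.95 TPM in Large white and 1.36 reads in Duroc library 1, ENSSSCT00000077242.1 had a mean of 4.15 TPM, and ENSSSCT00000039000.1 one of 2.29 TPM.

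**Figure D2:**
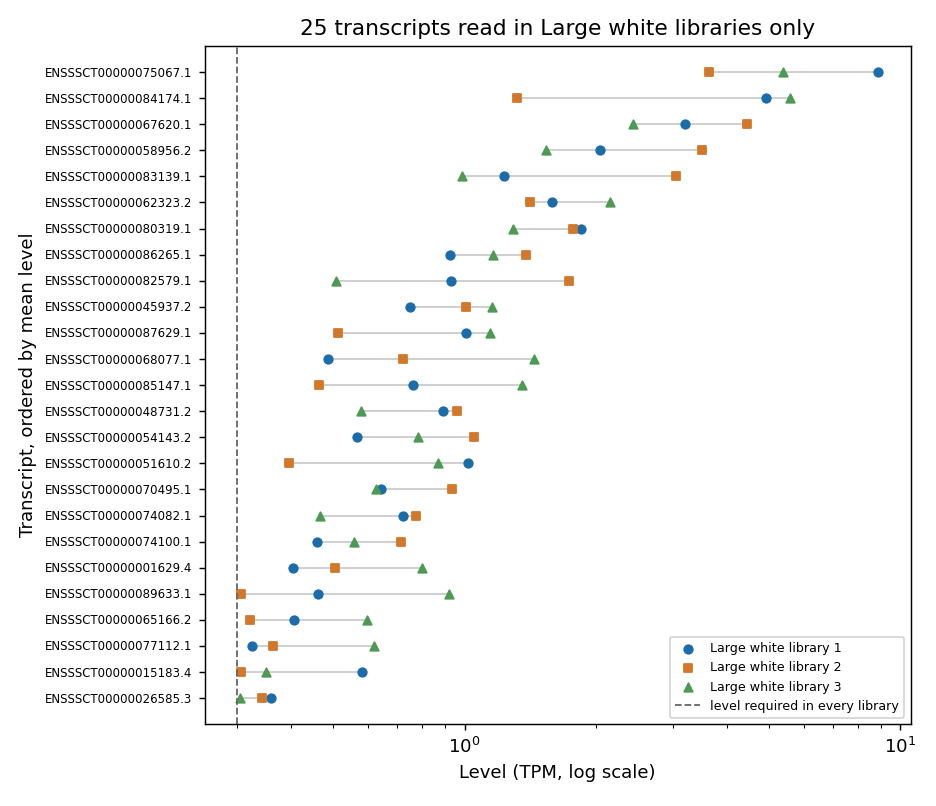
Level in TPM (log axis) of each of the 25 Large white-only transcripts in Large white libraries 1 to 3, ordered by mean level; points are single libraries, the grey line joins the lowest and the highest, and the dashed line is the required 0.3 TPM. The highest level of any member is 8.90 TPM, and 10 members stay under 1 TPM in every library.

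The Large white libraries lay closer together, among the members as among all transcripts. The highest level of a Large white-only transcript was a median of 1.9 times the lowest and at most 4.24 times, against a median of 1.39 times over the 25990. It was under 2 times in 15 members (60%, against 83.9%) and over 5 times in none (against 1.38%). Large white libraries 2 and 3 were each the highest in 10 members (40%, against 28.7% and 33.2%), and library 1 in 5 (20%, against 38.2%). For either breed, the members thus had a wider spread between the libraries of the breed that held them than the transcripts at large, which also had higher levels.

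Members in both directions had shorter median lengths than other transcripts, and the shortest rested on the fewest reads. The median length was 2201 bases for Duroc-only and 1416 bases for Large white-only transcripts, against 2930 and 2913 bases over the transcripts that reached 0.3 TPM in all libraries of the breed. Of the Duroc-only members, 14 of 49 (28.6%) were under 1000 bases, against 9.14%, and of the Large white-only members 8 of 25 (32.0%), against 9.2%. By length, the share without reads in the other breed was 1.54% for Duroc and 0.866% for Large white from 300 to 500 bases, and 0.114% and 0.0627% from 2000 to 4000 bases. Above 4000 bases it was higher again for Duroc, at 0.165%, and lower for Large white, at 0.0358%. By mean level it was 0.790% and 0.417% from 0.3 to 1 TPM, 0.0761% and 0.0429% from 3 to 10 TPM, and 0.0213% and 0% above 10 TPM. Leaving out the 6 transcripts by name lowers some of these shares. With them included, the shares were 0.134% and 0.0731% from 2000 to 4000 bases, and 0.177% and 0.0358% above 4000 bases. They were 0.0888% and 0.0429% from 3 to 10 TPM, and 0.0319% and 0.0352% above 10 TPM, the last from 3 transcripts in each direction. As 1 read in 312 bases gave 0.710 TPM, the level limit asks for fewer reads of a short transcript.

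**Figure D3:**
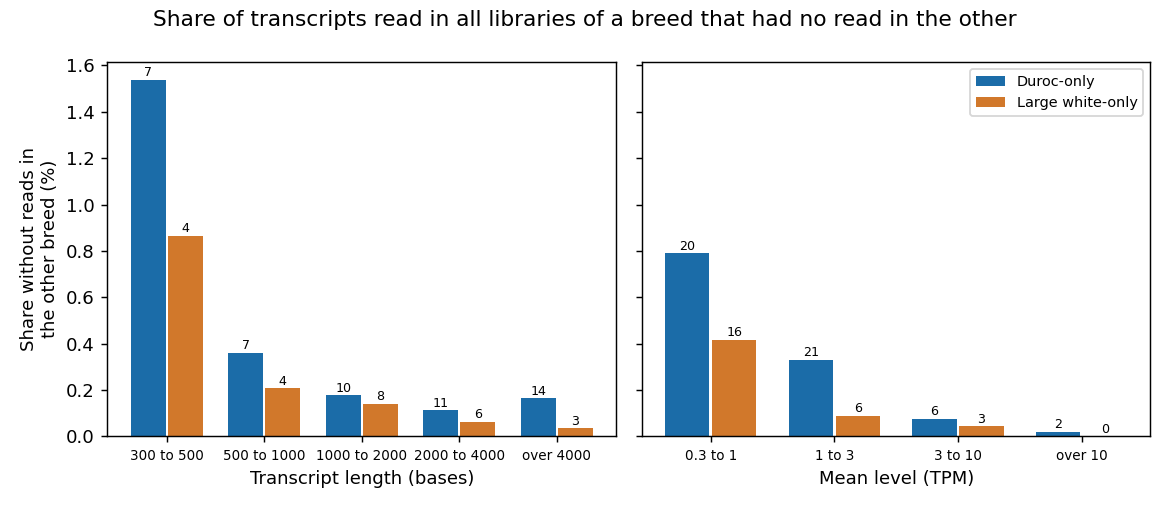
Share (%) of the transcripts reaching 0.3 TPM in all libraries of a breed that had no read in the other breed, by length in bases (left) and by mean level in TPM (right); bars are Duroc-only and Large white-only, and the number on each bar is its count of members, without the 6 transcripts left out by name. Shares are highest at 300 to 500 bases (1.54% and 0.866%) and at 0.3 to 1 TPM (0.790% and 0.417%).

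The reads that an equal level would have given in the other breed show how far each absence could be seen. They were computed from the mean level and from the effective length and depth of each library without reads, taking the lowest of the 3 libraries. All 49 Duroc-only transcripts would have had at least 3 reads in each Large white library, 37 at least 10 and 7 at least 100, with a median of 43.2. Of the Large white-only transcripts 21 of 25 would have had at least 3 reads in each Duroc library and 14 at least 10, with a median of 18.2. For the other 4, of 343 to 616 bases, a lower level in Duroc was not detectable at this depth. From the lowest library with reads, 42 Duroc-only and 20 Large white-only transcripts lay at or above the floor. Of these, 17 and 3 were at least 10-fold higher in the libraries of their breed. The lowest library of the other 7 and 5 members lay under the floor, and no fold is given for them. The floor covers counting error only, and fewer cells with a transcript cannot be told apart from less of it per cell.

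**Figure D4:**
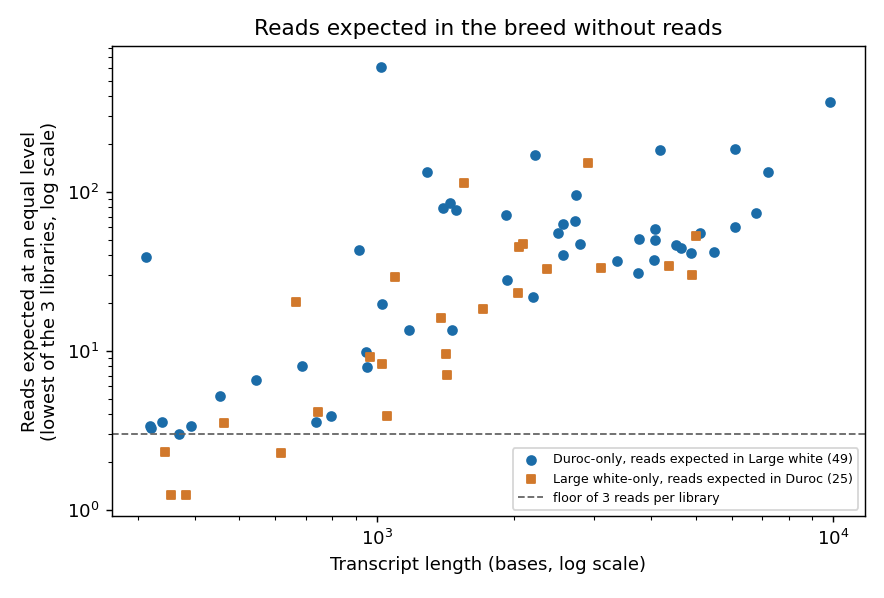
Reads expected in the breed without reads at an equal mean level (lowest of its 3 libraries, log axis) against transcript length in bases (log axis), for the 49 Duroc-only and 25 Large white-only transcripts; each point is a transcript and the dashed line is the floor of 3 reads. All Duroc-only points lie at or above the floor and 4 Large white-only points lie under it.

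Counts were estimated per transcript, so absence of a transcript cannot be told apart from assignment of its reads to another one. Estimated reads were whole numbers, within 0.001, in all 3 libraries for 6 of 49 Duroc-only transcripts (12.2%, against 13.9% of transcripts reaching the level) and for 5 of 25 Large white-only ones (20%, against 14.6%). The other members had fractional reads in at least 1 library. An identifier of version 1, an Ensembl model unchanged since the identifier was issued, was found in 20 Duroc-only (40.8%, against 26.4%) and 15 Large white-only transcripts (60%, against 26.9%).

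How often the pattern held in a library that was not used to choose it was read by applying the rule to 5 libraries and looking in the sixth. Without Duroc library 1, 97 transcripts were Duroc-only, and 49 of them (50.5%) reached 0.3 TPM in that library. The numbers were 93 and 52.7% for Duroc library 3, but 232 and 21.1% for Duroc library 2, where 145 of the 232 had no read. Over all transcripts that reached 0.3 TPM in the other 2 Duroc libraries, 95.3%, 96.2% and 88.1% reached it in libraries 1, 3 and 2. The chosen transcripts that fell short had median levels of only 0.704 to 0.893 TPM in the other 2 Duroc libraries. The comparison was not matched for level. With a Large white library left out, 106, 121 and 101 transcripts were chosen, of which 46.2%, 40.5% and 48.5% had no read in Large white libraries 1, 2 and 3. Of the 26169 transcripts read in Duroc, 1.43% to 1.61% had no read in a given Large white library. Those were not chosen for a lack of reads in other Large white libraries and had higher levels, so the difference in shares does not measure a breed pattern. In no library left out did the Duroc-only pattern hold for more than 52.7% of the transcripts chosen on the other 5. By construction, those that held were the same 49 members each time, so these shares differ only through the number chosen.

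For the Large white-only pattern the share that held was at most 43.9%. Those that held were again, by construction, the same Large white-only members each time. Leaving out Large white libraries 1, 2 and 3 gave 68, 71 and 57 transcripts, of which 36.8%, 35.2% and 43.9% reached 0.3 TPM in the library left out. Over all transcripts that reached 0.3 TPM in the other 2 Large white libraries it was 95.3% to 95.6%, without matching for level. The chosen transcripts that fell short had median levels of only 0.651 to 0.762 TPM in the other Large white libraries. Leaving out Duroc libraries 1, 2 and 3 gave 73, 96 and 60, of which 34.2%, 26.0% and 41.7% had no read there. The shares were 1.38%, 1.40% and 1.3% of the 25990 transcripts read in Large white. Those were not chosen for a lack of reads in other Duroc libraries and had higher levels, so this difference does not measure a breed pattern either. In Duroc library 2, 71 of the 96 had reads, at a median of 1.47 TPM, beside a median mean level of 1.13 TPM for the same transcripts in Large white. Their lack of reads in Duroc libraries 1 and 3, the libraries that stood apart, was required by the choice and is not a result. With Duroc library 2 as the only Duroc library, 328 transcripts were Duroc-only and 363 Large white-only. These counts are larger by construction, since fewer libraries must meet the limits. The limits also fall on unlike numbers of libraries in the 2 directions, so the counts are not comparable with each other.

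**Figure D5:**
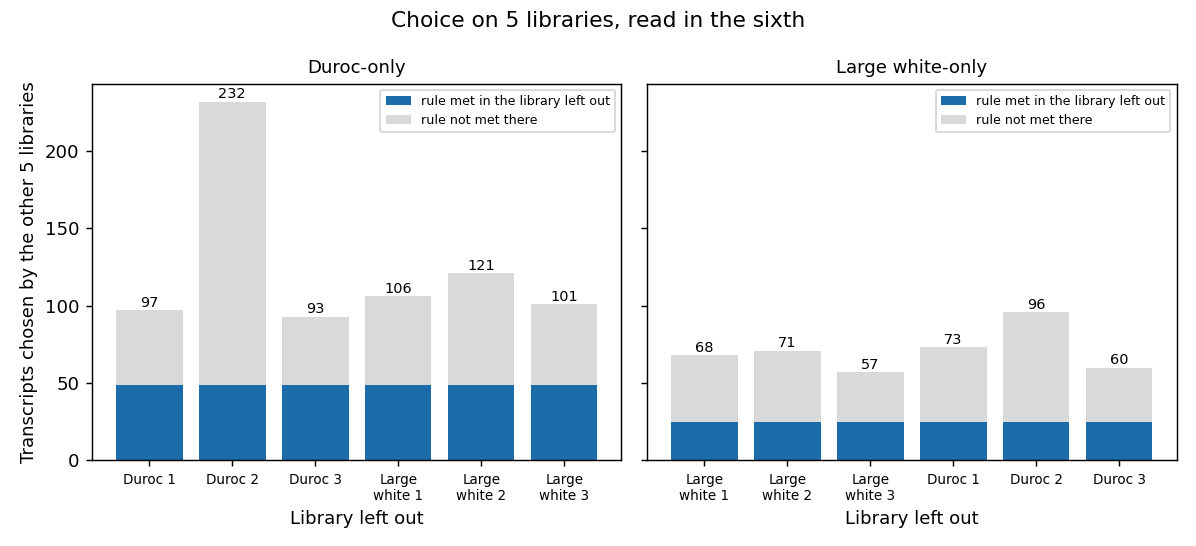
Number of transcripts that met the rule in 5 libraries (number above each bar), by the library left out, split into those that met it in the sixth (blue) and those that did not (grey), for Duroc-only (left) and Large white-only (right). The blue part is 49 or 25 throughout, by construction, and the bar for Duroc library 2 reaches 232 and 96.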

How the data were processed

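Testis RNA of 2 breeds was analysed from 6 RNA libraries, 3 of Duroc and 3 of Large white. Per the submitters' processing notes, build susScr11 was used, and Bowtie 1.3.1, Salmon 1.9.0 and STAR 2.7.10a were run. The role of each program and the transcript annotation were not stated. The RNA files gave length, effective length, TPM as the authors deposited it, and an estimated count of reads per transcript, per the file headers. Transcripts up to 300 bases held 23.1% to 27.9% of all TPM, which lowers the TPM of the others. The small RNA files gave raw read counts and RPM, scaled by the authors to the listed reads. Only 4 miRNAs fixed as tissue markers were read from them, taking the entry with the most reads.

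Python 3.11.15 and pandas 2.3.3 applied the rule, which was checked on simulated data. No test was run, since the rule used the contrast between the breeds. Reads expected in a library were the mean TPM times its effective length and its reads per base of effective length, allowing for the scale of TPM. Lower bounds use the lowest TPM in place of the mean, over the floor of 3 reads per library. For each breed, the transcripts named were the 12 with the highest mean TPM, the 5 with the highest minimum of reads, the 2 longest and those nearest to the limits. The members and these lists were chosen with earlier results of these data known. Alternatives were other limits on level, reads and length, TPM rescaled to transcripts over 300 bases, other floors, and each library left out.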

Additional observations from a re-analysis of the deposited data

How the results depend on the processing

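Against 49 Duroc-only and 25 Large white-only transcripts, a limit of 0.1 TPM gave 135 and 63, and 1 TPM gave 12 and 6. Allowing fewer than 3 reads in each library of the other breed gave 95 and 74. Requiring exactly 0 reads left 16 Large white-only transcripts, and 37 Duroc-only ones. At least 10 reads in place of the TPM limit gave 67 and 27, of which 34 and 14 were members. TPM rescaled to transcripts over 300 bases gave 70 and 33. Any length gave 58 and 29, and a length over 1000 bases gave 35 and 17. Leaving out 1 library gave 93 to 232 and 57 to 96. Duroc library 2 alone, chosen after seeing the data, gave 328 and 363, with median levels of 0.524 and 1.02 TPM. Against medians of 1.15 and 0.860 TPM, the limit of 0.1 TPM gave 0.532 and 0.502 TPM, and 1 TPM gave 2.69 and 2.86 TPM. The Duroc-only median was 0.627 TPM with at least 10 reads and 1.49 TPM at any length. The Large white-only median was 1.02 TPM with fewer than 3 reads allowed and 1.01 TPM with TPM rescaled to transcripts over 300 bases. Leaving out 1 library gave medians of 0.811 to 1.34 TPM and 0.746 to 1.03 TPM. A looser limit, or fewer libraries, adds transcripts by construction. In each setting run, members were more numerous in Duroc, except with Duroc library 2 alone. The settings reuse the same libraries and are not repeated evidence. With Duroc library 2 alone, the limit on level fell on 1 library for Duroc-only and on 3 for Large white-only transcripts. The counts of 328 and 363 thus come from unlike rules. The expected reads reached a floor of 1 for 49 and 25 members, and of 10 for 37 and 14. No paired analysis was possible because the results come from no test.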

Other observations

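Some transcripts met the rule in 5 libraries and had many reads in the sixth. They were looked up after the values were seen, as the most abundant in each library left out. ENSSSCT00000059366.2, of 2080 bases, had 7.37, 15.5 and 31.7 TPM in Duroc libraries 1 to 3 and 76.2 TPM from 2304 reads in Large white library 3, its highest level. No read was assigned in Large white libraries 1 and 2. ENSSSCT00000071182.1, of 551 bases, had 28.4, 5.52 and 26.4 TPM in Duroc and 6.86 TPM from 39.8 reads in Large white library 2, with none in the other 2. ENSSSCT00000025114.3, of 1065 bases, had 5.05, 8.51 and 3.29 TPM in Duroc. In Large white library 1 it had 4.05 TPM from 66.4 reads, with none in the other 2. In the other direction, ENSSSCT00000083860.1, of 890 bases, had 58.0, 46.3 and 60.6 TPM in Large white and 47.4 TPM from 494 reads in Duroc library 2, with no read in Duroc libraries 1 and 3. ENSSSCT00000064681.2, of 1077 bases, had 4.38, 2.33 and 2.93 TPM in Large white and 11.2 TPM from 186 reads in Duroc library 1, with none in the other 2. ENSSSCT00000070438.1, of 1465 bases, had 5.18, 8.15 and 4.48 TPM in Large white. In Duroc library 3 it had 5.62 TPM from 99.4 reads, with none in the other 2. High levels and an absence of reads thus stood side by side within one breed. Whether these libraries come from animals that differ in these transcripts was not tested.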
